A study of Mus musculus with 6 samples.

Results

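The CD8 and CD3 complex genes are the chains with which a cytotoxic T cell reads antigen. The 7 members are the rows of the deposited count table for the coreceptor chains Cd8a, Cd8b1 and Cd4 and for the CD3 signalling chains Cd3e, Cd3d, Cd3g and Cd247, out of 15601 genes in the table. All 7 rows were found. They were measured by single-cell RNA sequencing of CD8 T cells sorted from MB49 tumours, a urothelial carcinoma cell line, grown under the skin of wild-type C57BL/6 mice. The 2 groups differed by the sex of the host: 3 libraries came from male mice and 3 from female mice. Both received the same tumour cells at 6 weeks of age (the age label runs from 6 to 8 weeks), and tumours were taken on day 10. A sort kept live cells with surface CD3 and CD8 but no CD4, so the proteins of these genes chose the cells, and high Cd8a with low Cd4 is a property of the sort and no finding.

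In a T cell, the antigen receptor has no signalling tail of its own. It is carried to the surface and made to signal by the CD3 proteins: CD3 epsilon (Cd3e) pairs with CD3 delta (Cd3d) or CD3 gamma (Cd3g), and CD3 zeta (Cd247) joins as a homodimer. Their tails hold ITAMs, tyrosine motifs that the kinase Lck phosphorylates and that then recruit Zap70. CD8 binds MHC class I and brings Lck to the receptor. Conventional cytotoxic T cells carry the CD8 alpha-beta heterodimer, and the beta chain (Cd8b1) needs the alpha chain (Cd8a) to reach the surface. Several innate-like lymphocytes, among them intestinal intraepithelial cells, carry CD8 alpha-alpha homodimers without the beta chain.

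The genes lie in 3 places of the mouse genome (GRCm38, mm10; GENCODE M21 positions). Cd8b1 (chr6:71322788-71337494) and Cd8a (chr6:71373427-71379173) are neighbours on the plus strand of chromosome 6, with 35932 bases between the end of one and the start of the other. Cd4 is on the minus strand of the same chromosome (chr6:124864692-124888221), and Cd247 on the plus strand of chromosome 1 (chr1:165788681-165877277). Cd3g (chr9:44969572-44980431, minus strand), Cd3d (chr9:44981786-44987339, plus strand) and Cd3e (chr9:44998740-45009627, minus strand) lie side by side on chromosome 9. Cd3g and Cd3d are transcribed away from each other, from annotated starts 1355 bases apart.

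The bases upstream of the annotated starts of the 3 neighbouring CD3 genes are shown because Cd3g and Cd3d share this short interval while, as described further on, their UMI ratio varied between clusters. They come from the RefSeq promoter table (GRCm38.p6), in which 5 of the 7 members had an entry, and bases within the first exon are left out. Cd8b1 and Cd4 had no entry. Each is printed 5′ to 3′ on the strand of its gene, with matches to 3 motifs in capitals: the E-box CACCTG, which reads CAGGTG on the other strand, the ETS core AGGAAG, which reads CTTCCT there, and the TCF core ATCAAAG, which reads CTTTGAT there.
Cd3d, chr9:44981536-44981785, plus strand: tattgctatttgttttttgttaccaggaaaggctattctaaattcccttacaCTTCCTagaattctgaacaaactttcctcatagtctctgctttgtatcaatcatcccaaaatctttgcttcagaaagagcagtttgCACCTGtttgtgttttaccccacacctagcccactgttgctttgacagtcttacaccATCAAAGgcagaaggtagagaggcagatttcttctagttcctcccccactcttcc
Cd3g, chr9:44980432-44980681, minus strand: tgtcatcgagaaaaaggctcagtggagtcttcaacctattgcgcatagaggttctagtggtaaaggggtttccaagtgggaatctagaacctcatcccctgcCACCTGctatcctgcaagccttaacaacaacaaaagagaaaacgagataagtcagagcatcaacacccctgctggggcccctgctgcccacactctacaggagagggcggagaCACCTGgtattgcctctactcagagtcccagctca
Cd3e, chr9:45009628-45009861, minus strand: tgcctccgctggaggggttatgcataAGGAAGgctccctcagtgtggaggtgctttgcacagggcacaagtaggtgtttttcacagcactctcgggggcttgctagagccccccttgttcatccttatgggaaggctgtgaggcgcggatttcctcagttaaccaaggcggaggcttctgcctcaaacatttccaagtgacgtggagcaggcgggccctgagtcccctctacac
The E-box occurred 1 time before Cd3d, 2 times before Cd3g and 0 times before Cd3e. It occurred at least once in 17.2% of the 32851 promoters of the table. The ETS core occurred 1 time before Cd3d and 1 time before Cd3e (29.5% of promoters), and the TCF core 1 time before Cd3d alone (3.21%). The RUNX core TGTGGT, which reads ACCACA on the other strand and occurred in 14.05% of promoters, was in none of the 3 windows. No 2 of these matches overlapped. A match is a string of letters, not a bound site.

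The table held 26698 cells and 295211042 UMIs (unique molecular identifiers, each one captured transcript), as 25562319 to 66105318 per library. Median UMIs per cell were 6397.5 to 9210 in the male libraries and 9043 to 10114.5 in the female libraries. The authors' 11 clusters differed in depth: the median cell held 1742 UMIs in cluster 6 and 1461 in cluster 10, with mitochondrial genes at 30.03% and 20.3% of UMIs, and 23987.5 UMIs in cluster 3. Levels are given as CPM, the UMIs of a gene scaled to a common total of UMIs for the same cells. The 3′ kit counts 1 end of each transcript, so CPM are not divided by gene length and no order of levels between genes is drawn. Marker sums help to place the clusters. The 6 exhaustion markers summed to 3706 ± 649 CPM in cluster 6, 1800.5 ± 197 in cluster 0 and 1547 ± 128 in cluster 8 (SD, n = 6 libraries here and for the cluster values that follow). The 3 proliferation markers were highest in cluster 3, at 1869 ± 92.0 CPM, and the 3 interferon-stimulated markers in cluster 9, at 1229 ± 240.4 CPM. The 4 naive or central memory markers were highest in clusters 7 and 2, at 1000.3 ± 82.5 and 823 ± 107 CPM. No gamma-delta or alpha-beta receptor constant chain was analysed here. Libraries shared 84 cell barcodes, which account for 169 cells.

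Cluster 2 had the lowest Cd8a and the lowest Cd8b1 of the 11 clusters in each of the 6 libraries. Cd8a, the chain shared by both forms of CD8, had 212, 215 and 217 CPM in cluster 2 of male libraries 1, 3 and 4, and 279, 299 and 203 CPM in cluster 2 of female libraries 2, 5 and 6. Cd8b1, the chain specific to the heterodimer, had 110, 101 and 126 CPM in cluster 2 of the male libraries, and 107, 199 and 69.5 CPM in cluster 2 of the female libraries. For both chains the sexes overlapped there, and female library 5 was the highest and female library 6 the lowest. Against the mean of the other 10 clusters in the same library, Cd8a in cluster 2 was lower by a mean log2 difference of -1.67 ± 0.17, which is 3.17-fold, and Cd8b1 by -2.81 ± 0.43, which is 7.01-fold. This mean counts cluster 6, whose median cell held 1742 UMIs and which was highest for both chains, like any other cluster. The folds were not taken without cluster 6. The clusters were made from these cells' genes, so no test is given for a difference between clusters.

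The order of the other clusters differed between the 2 chains. Cd8a averaged 1581 ± 244 CPM in cluster 6, 907 ± 61.3 in cluster 0, 820 ± 78.0 in cluster 8, 724 ± 68.0 in cluster 4 and 663 ± 52.7 in cluster 5. Clusters 10, 9, 1 and 3 followed between 657 and 559 CPM, then cluster 7 with 360 ± 55.8 and cluster 2 with 237 ± 40.6. From cluster 6 down to cluster 5, and from cluster 3 down to cluster 2, each cluster was above the next in 6 of 6 libraries; clusters 5, 10, 9 and 1 were above their next neighbour in 3 to 4 of 6 libraries, or, for cluster 1 against cluster 3, in 5. Cd8b1 was again highest in cluster 6, with 1538 ± 176 CPM, but cluster 1 came next with 975 ± 78.0, above cluster 0 with 905 ± 47.5 in 5 of 6 libraries. Cluster 1 stood in the eighth place for Cd8a. At the low end for Cd8b1 were cluster 10 with 521 ± 110.4, cluster 7 with 443 ± 98.6 and cluster 2 with 119 ± 43.4 CPM, and clusters 10 and 7 were not separated (4 of 6 libraries).

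The high CPM of cluster 6 is a share of few UMIs. A cell of cluster 6 held 3.56 ± 0.61 Cd8a UMIs, against 15.8 ± 2.08 in a cell of cluster 3, which stood in the ninth place by CPM. Cells of cluster 2 held 1.61 ± 0.35 Cd8a UMIs and 0.791 ± 0.26 Cd8b1 UMIs at a median of 5936 UMIs per cell, whereas cells of cluster 1, at 5345 UMIs, held 4.06 ± 0.94 and 6.57 ± 1.45. Cluster 2 was thus low on both scales beside a cluster of like depth.

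**Figure D1:**
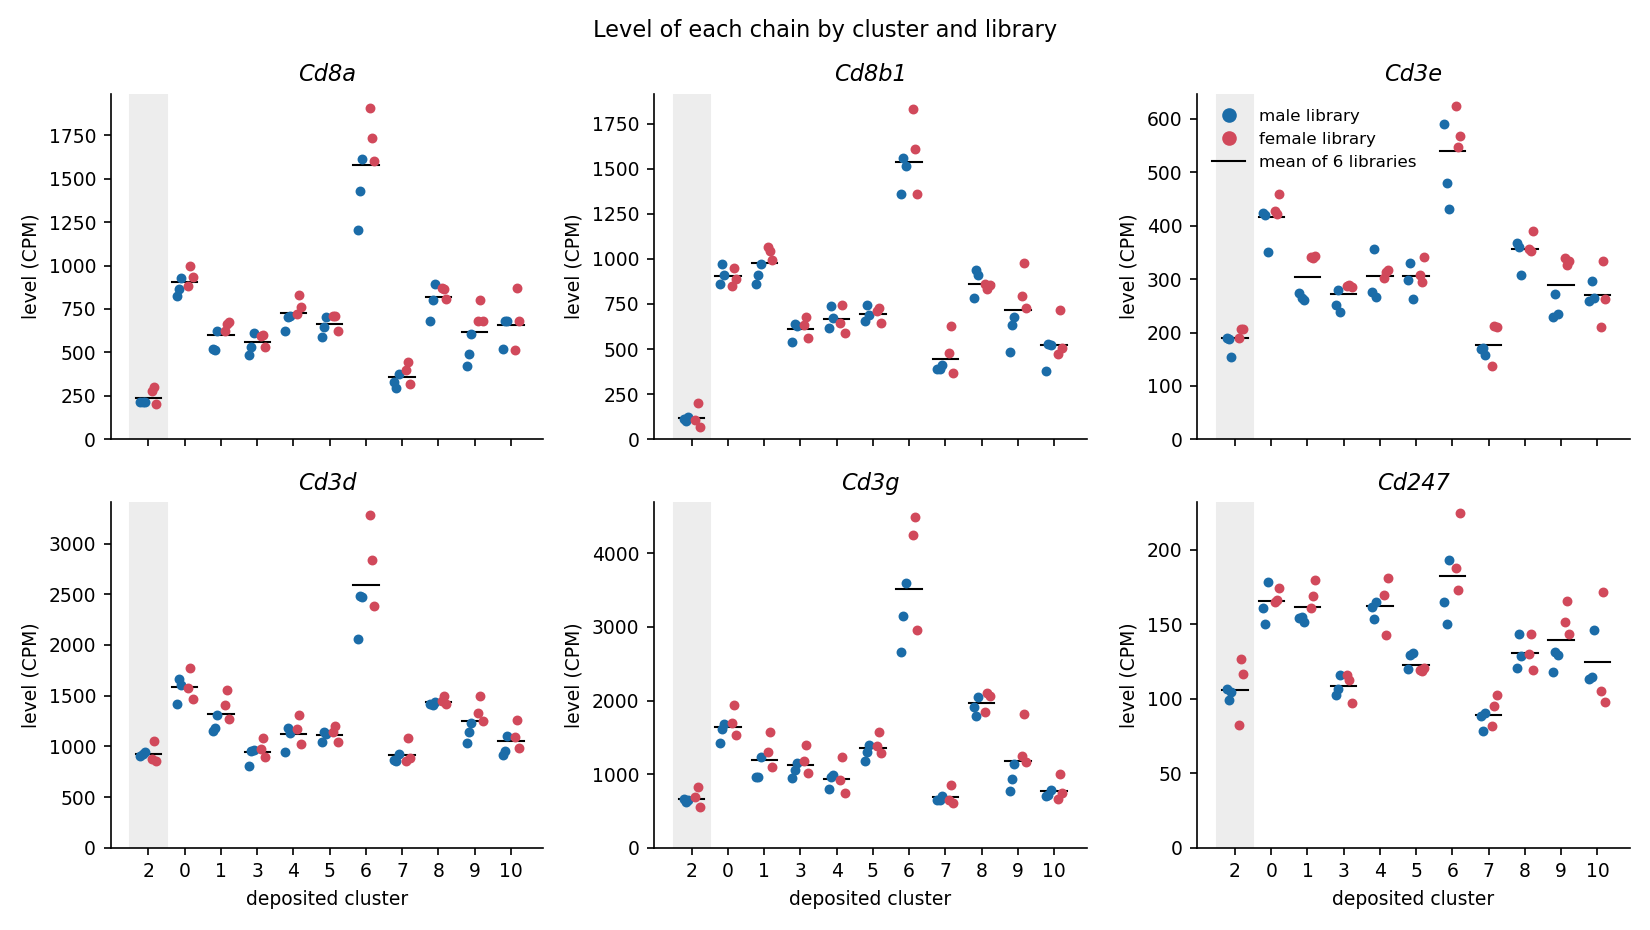
Level in CPM (y axis, from 0) of the 6 chains with more than traces of RNA, in each deposited cluster (x axis, cluster 2 first and shaded), with 1 point per library, male libraries left of female libraries, and a line at the mean of 6 libraries. Cluster 6 is highest in each panel, and cluster 2 is lowest for Cd8a and Cd8b1, at 237 and 119 CPM.

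The ratio of Cd8a to Cd8b1 UMIs set 2 clusters apart in opposite directions. In cluster 2 it was 1.93, 2.13 and 1.72 in male libraries 1, 3 and 4 and 2.60, 1.504 and 2.92 in female libraries 2, 5 and 6, and it was the highest of all clusters in 6 of 6 libraries. The counts behind it were 353 to 1710 Cd8a UMIs and 121 to 885 Cd8b1 UMIs per library, and the widest 95% interval, for female library 6, ran from 2.37 to 3.62. In cluster 1 the ratio was 0.601, 0.565 and 0.638 in the male libraries and 0.584, 0.638 and 0.677 in the female libraries, the lowest of all clusters in 6 of 6 libraries.

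Between these ends lay the other clusters, from 0.707 in cluster 7 of female library 5 to 1.38 in cluster 10 of male library 1. Cluster 10 averaged 1.27 ± 0.11 and was next to cluster 2 in 5 of 6 libraries. Clusters 4, 6, 0, 5, 8, 3, 9 and 7 followed with means of 1.09 to 0.822. Clusters 5 and 8 were above their next neighbour in 4 of 6 libraries each, and the other neighbours in 5 or 6.

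**Figure D2:**
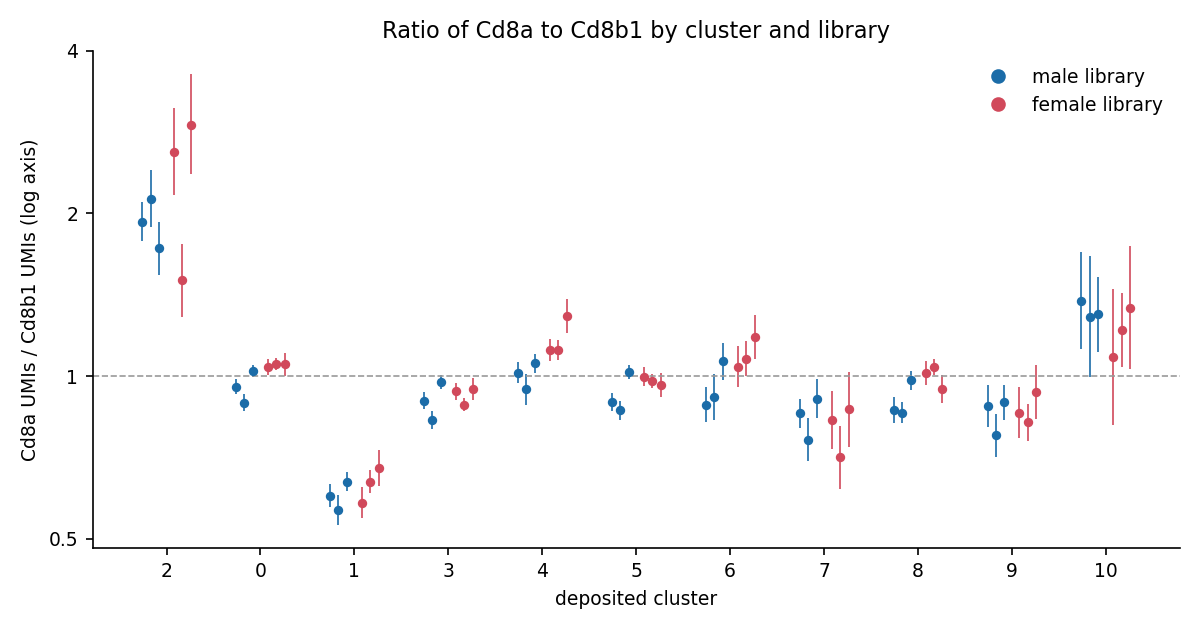
Cd8a UMIs divided by Cd8b1 UMIs (y axis, log scale) for each cluster (x axis, cluster 2 first) and library, male libraries left of female libraries, with 95% intervals from the counts, which cover counting error only. Cluster 2 lies between 1.504 and 2.92 and cluster 1 between 0.565 and 0.677, and the other clusters lie between 0.707 and 1.38.

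Cells were also sorted into 4 classes by whether they held a UMI of Cd8a, of Cd8b1, of both or of neither. In cluster 2, 39.4% ± 4.4 of cells held Cd8a alone, 23.6% ± 4.1 both, 7.22% ± 2.1 Cd8b1 alone and 29.7% ± 4.0 neither. Outside cluster 2, 5.43% ± 1.7 held Cd8a alone, 85.9% ± 4.8 both, 4.95% ± 1.7 Cd8b1 alone and 3.71% ± 1.5 neither. By library, the Cd8a-alone share of cluster 2 was 39.3%, 40.2% and 33.0% in males and 42.8%, 36.2% and 45.2% in females, which overlapped. All sorted cells carried surface CD8, so no population that should lack Cd8a was at hand to measure free RNA, and the part of free RNA was not tested. A cell with neither UMI is one without a captured transcript.

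A UMI is easier to find in a deep cell, so each cell was also thinned to 1000 UMIs, which left out 4 cells of cluster 2 and 238 cells outside it (165 male and 73 female). After thinning, 19.5% ± 3.1 of cluster 2 cells held a Cd8a UMI and 9.15% ± 3.3 a Cd8b1 UMI, against 48.7% ± 4.3 and 51.9% ± 2.9 outside cluster 2. Thinned cells of cluster 2 held Cd8a alone in 16.95% ± 2.5 and Cd8b1 alone in 6.56% ± 2.1 of cases. In thinned cells of cluster 1 this was turned round, with Cd8a alone in 17.04% ± 3.0 and Cd8b1 alone in 30.6% ± 2.6. The thinned share of Cd8a-alone cells was thus alike in both clusters, and their thinned shares of cells with Cd8b1, alone or with Cd8a, were not.

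**Figure D3:**
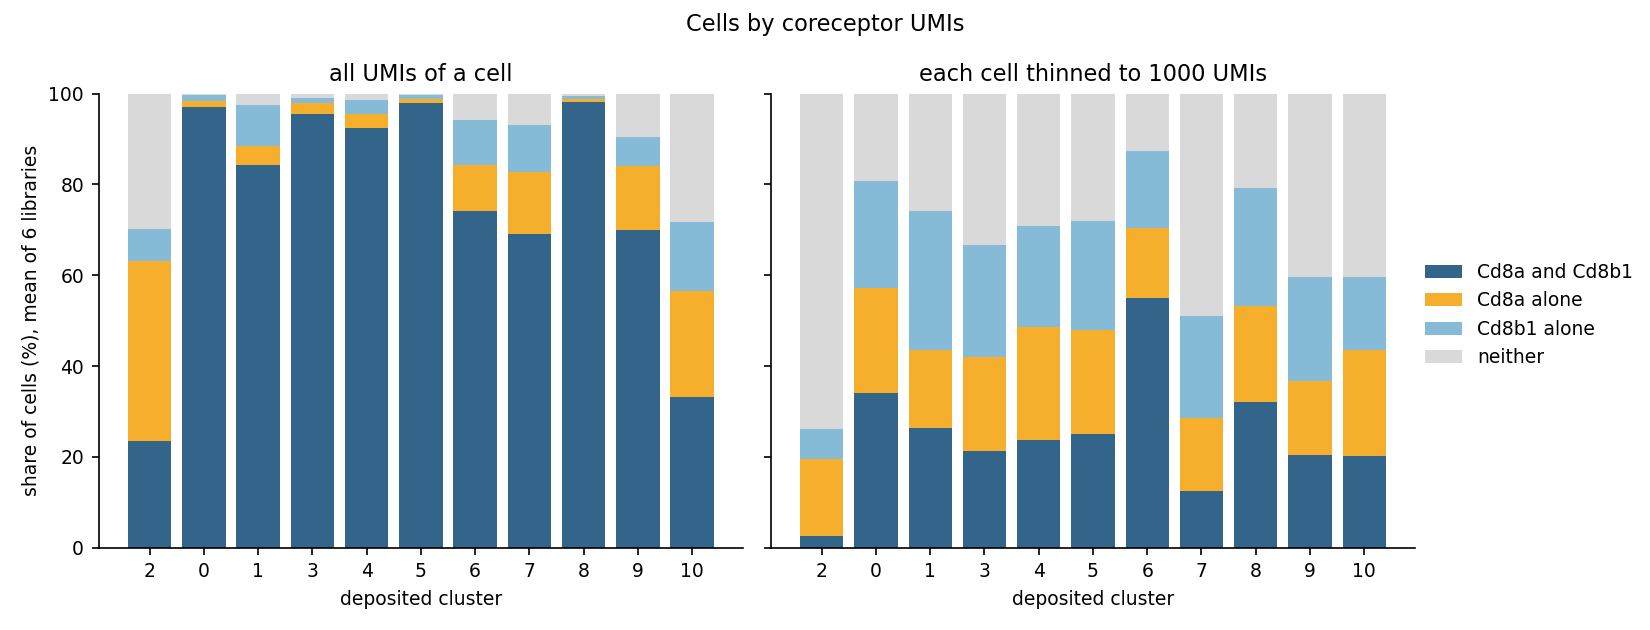
Mean share of cells over 6 libraries (y axis, percent) with UMIs of both coreceptor chains, of Cd8a alone, of Cd8b1 alone or of neither, by cluster (x axis, cluster 2 first), with all UMIs (left) and with each cell thinned to 1000 UMIs (right). In cluster 2 the Cd8a-alone class is the largest with all UMIs, at 39.4%. After thinning to 1000 UMIs the class with neither is the largest there, at 68.3% to 76.8% over the libraries.

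In clusters 2, 7 and 9, cells with Cd8a alone had more Fcer1g than cells with both chains. Fcer1g, an adaptor with an ITAM that serves Fc receptors and receptors of natural killer cells and is related to Cd247, had 397 ± 96.1 CPM in cluster 2 against 52.7 ± 19.9 as the mean of the other clusters. In cluster 8, Fcer1g ran from 21.8 to 237 CPM over the libraries. The list of 12 natural killer and innate-like markers that holds Fcer1g was not highest in cluster 2. Its sum was 2000 ± 296 CPM there, 2641 ± 342 in cluster 6 and 2368 ± 277 in cluster 4. In cluster 7, Fcer1g had 154, 229 and 132 CPM in Cd8a-alone cells of male libraries and 237, 399 and 223 CPM in those of female libraries. Cells of cluster 7 with both chains had 39.9, 38.0 and 47.7 CPM in male libraries and 28.8, 18.6 and 48.2 CPM in female libraries. The 2 classes did not overlap. In cluster 9 the pattern was the same: Cd8a-alone cells averaged 299 ± 82.5 CPM (183 to 435) and cells with both chains 39.0 ± 9.3 CPM (30.8 to 53.8).

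Cells with Cd8b1 alone did not share this pattern, and cells with neither chain did in cluster 9 and, in 5 of 6 libraries, in cluster 2. Cd8b1-alone cells had 13.9 ± 15.7 Fcer1g CPM in cluster 7 and 28.9 ± 26.1 in cluster 9, and were above the cells with both chains in 0 of 6 and 3 of 6 libraries. Cells of cluster 9 with neither chain had 344 ± 145 CPM, above the cells with both in 6 of 6 libraries, and those of cluster 7 had 64.5 ± 77.6 CPM, above in 3 of 6. In cluster 2 itself, Fcer1g had 440 ± 94.2 CPM in Cd8a-alone cells and 317 ± 84.4 CPM in cells with both, higher in 6 of 6 libraries. Its cells with neither chain had 454 ± 195 CPM, above the cells with both in 5 of 6, and Klrb1c and Klra7 were above in 6 of 6. In cluster 1, Cd8a-alone cells had 29.4 ± 30.5 CPM and cells with both 11.1 ± 5.9 CPM, higher in 4 of 6 libraries. The smallest class behind these values, Cd8b1 alone in cluster 9, had 2 cells in 1 library, and the smallest Cd8a-alone classes had 4 cells in cluster 1, 7 in cluster 9 and 10 in cluster 7.

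The 12 natural killer and innate-like markers were counted where a class had cells in all 6 libraries, beside the share of the genes tested in that cluster that met the same rule. All 12 were among the tested genes in cluster 2, but only 10 were in clusters 0, 1, 3, 4, 7 and 9. In cluster 6 the number tested was 9, and in cluster 10 it was 8. Of the 12, Cd8a-alone cells were above cells with both chains in each of the 6 libraries for 4 in cluster 2 (2.24% of genes), 6 in cluster 7 (8.23%), 3 in cluster 9 (3.76%), 2 in cluster 3 (3%) and 1 in cluster 10 (0.973%). The count was 0 in cluster 0 (0.9%), cluster 1 (0.964%), cluster 4 (1.65%) and cluster 6 (4.1%). For cells with neither chain it was 3 in cluster 9 (3.54%), 2 in cluster 2 (4.41%), 1 in cluster 7 (1.33%), 1 in cluster 10 (2.12%; this marker was below the filter for tested genes) and 0 in clusters 1 and 6. For Cd8b1-alone cells it was 1 in cluster 0 (0.762%) and 0 in the other clusters with cells in all 6 libraries. The genes share cells and libraries, so these counts are not separate observations. Clusters 5 and 8 had Cd8a-alone cells in 5 libraries. In cluster 5, with 22 such cells, Klra7 had 545 ± 139.98 CPM in them against 7.53 ± 4.4 CPM in cells with both, and Fcer1g 331 ± 228 against 33.6 ± 16.95 CPM, each above in 5 of 5 libraries. These are 2 of the 12 markers, and no share over all genes was taken there, so no pattern is read from so few cells. Klra7, a receptor of the Ly49 family, had 274 ± 158 CPM in Cd8a-alone cells against 55.5 ± 37.5 CPM in cells with both in cluster 7, and 342 ± 182 against 34.6 ± 15.4 CPM in cluster 9. Klrb1c, the NK1.1 antigen, had 51.9 ± 25.2 against 4.62 ± 3.8 CPM in cluster 7. Ncr1, a marker of natural killer cells, had 0 to 29.9 CPM over the libraries in cluster 2, 0 to 10.5 CPM in cluster 7 and 0 to 2.70 CPM in cluster 9. The sum of the 12 markers was 1505 ± 520 CPM in Cd8a-alone cells and 554 ± 158 CPM in cells with both in cluster 7 (6 of 6 libraries), but 1542 ± 500 and 1445 ± 330 CPM in cluster 9 (4 of 6). There the receptor genes Klrk1 (242 ± 57.6 against 473 ± 125 CPM) and Klrc1 (159.9 ± 97.2 against 512 ± 168 CPM) were above in 0 of 6 libraries. With cells of at least 5000 UMIs alone, an alternative added after the data were seen, Fcer1g in Cd8a-alone cells was again above that in cells with both in 6 of 6 libraries in clusters 2, 7 and 9.

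**Figure D4:**
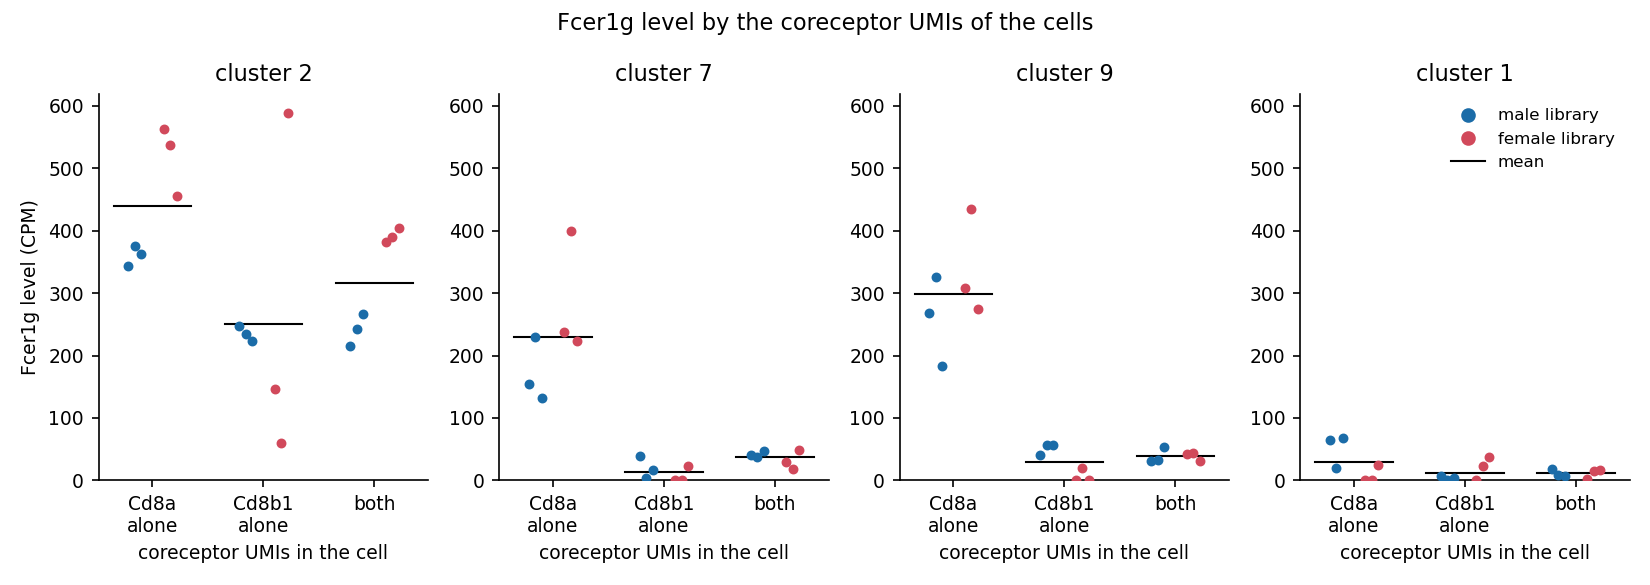
Fcer1g level in CPM (y axis, from 0) in cells with a UMI of Cd8a alone, of Cd8b1 alone or of both (x axis), in clusters 2, 7, 9 and 1, with 1 point per library, male libraries left of female libraries, and a line at the mean. In clusters 7 and 9 the Cd8a-alone points lie at 132 CPM or more and the points for both chains at 53.8 CPM or less.

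Cd4, the coreceptor for MHC class II, was measured at traces. The table held 56 Cd4 UMIs in 47 cells, which is 0.176% of cells, and 5 of these cells had more than 1 UMI, with 4 as the most. Of the 47 cells, 46 also held a Cd8a or Cd8b1 UMI and 44 held both, and their median depth was 18743 UMIs against 7965 over all cells. Clusters 2, 7 and 10 had 0 Cd4 UMIs, which allows shares of cells with a UMI of up to 0.0960%, 0.171% and 0.264%. The highest share was in cluster 8, with 0.590% (exact 95% interval 0.283% to 1.08%). All cells were sorted as CD4-negative, and no cluster is read as expressing Cd4. The source of these UMIs was not tested, and their share is not taken as a measure of stray UMIs of other genes.

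The CD3 chains were less reduced in cluster 2 than the CD8 chains. Among the other clusters, Cd3g did not vary less than Cd8a or Cd8b1. Cd3e, which every CD3 pair contains, had 189, 187 and 154 CPM in cluster 2 of male libraries 1, 3 and 4, and 190, 206 and 207 CPM in cluster 2 of female libraries 2, 5 and 6. Its mean was 540 ± 71.5 CPM in cluster 6, 417 ± 35.6 in cluster 0 and 356 ± 26.9 in cluster 8, and it was 189 ± 19.1 in cluster 2 and 176 ± 29.4 in cluster 7. Clusters 2 and 7 were at the low end without being separated from each other, with cluster 2 above cluster 7 in 3 of 6 libraries, and cluster 10, the next above, was higher than cluster 2 in 6 of 6.

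Cd3d had 928 ± 67.7 CPM in cluster 2 and 913 ± 86.4 in cluster 7, and between these and 2587 ± 423 in cluster 6 lay cluster 0 with 1585 ± 129 and cluster 8 with 1439 ± 33.4. Cluster 3 was close to the low end, with a Cd3d mean of 905 CPM in males and 983 in females. It was above cluster 2 in 5 of 6 libraries. Cd3g spread further. It had 667 ± 87.9 CPM in cluster 2 and 685 ± 85.1 in cluster 7, against 3517 ± 736 in cluster 6 and 1962 ± 131 in cluster 8. Cd247, the zeta chain, was the most even of the 4, with 89.4 ± 8.9 CPM in cluster 7, 106 ± 15.0 in cluster 2 and 182 ± 26.0 in cluster 6. For Cd247, cluster 3 was above cluster 2 in 3 of 6 libraries, so they were not separated. Clusters 6, 0, 4 and 1 stood at the high end for Cd247 and no neighbours among them were separated in all 6 libraries.

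Against the mean of the other clusters in the same library, cluster 2 was lower by a log2 difference of -1.10 ± 0.13 for Cd3g, -0.78 ± 0.05 for Cd3e, -0.52 ± 0.11 for Cd3d and -0.40 ± 0.19 for Cd247, each in 6 of 6 libraries. Here too the mean includes cluster 6, the highest for each of these genes, and no difference was taken without it. Cd8a and Cd8b1 together had 0.187 ± 0.026 UMIs per UMI of the 4 CD3 genes in cluster 2, against means of 0.430 to 0.552 in the other 10 clusters. Cluster 7, which had like levels of the CD3 genes, was at 0.430 ± 0.052.

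The makeup of the CD3 UMIs shifted mainly between the 2 neighbouring genes Cd3g and Cd3d. The ratio of Cd3g to Cd3d UMIs was 0.731, 0.675 and 0.691 in cluster 2 of the male libraries and 0.781, 0.782 and 0.646 in cluster 2 of the female libraries. Its mean was 0.718 ± 0.056 in cluster 2, 0.730 ± 0.068 in cluster 10 and 0.749 ± 0.032 in cluster 7, against 1.36 ± 0.14 in cluster 6 and 1.36 ± 0.079 in cluster 8. Cluster 3, with the proliferation markers, and cluster 5 were at 1.19 ± 0.063 and 1.21 ± 0.069. Both genes are paired with Cd3e in the receptor, and Cd3e made up 8.07% to 12.3% of the CD3 UMIs by cluster mean. The ratio was below 1 in each library in clusters 2, 10, 7 and 4 (0.831 ± 0.076 in cluster 4), and above 1 in each library in clusters 6, 8, 5 and 3.

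In cluster 9 the CD3 genes were lower in Cd8a-alone cells than in cells with both chains, in 5 or 6 of 6 libraries. Cd8a-alone cells of cluster 9 had 597 ± 104 CPM of Cd3g against 1321 ± 356 CPM in its cells with both chains, and 938 ± 107 against 1333 ± 149.6 CPM of Cd3d, each lower in 6 of 6 libraries. Cd247 had 102 ± 21.8 against 146 ± 20.2 CPM, lower in 6 of 6, and Cd3e 205 ± 70.5 against 317 ± 55.0 CPM, lower in 5 of 6. In cluster 7, Cd3d was again lower in Cd8a-alone cells in 6 of 6 libraries (808 ± 42.1 against 947 ± 84.4 CPM), whereas Cd3g was lower in 3 of 6 (720.2 ± 184 against 694 ± 75.6 CPM). This was not particular to Cd8a-alone cells or to cluster 9. Cells of cluster 9 with neither chain had 550 ± 183 CPM of Cd3g and 792 ± 207 of Cd3d, each lower in 6 of 6. Its Cd8b1-alone cells had 695 ± 296 CPM of Cd3g, lower in 6 of 6, but Cd247 was lower in 2 of 6. Cd3g was also lower in 6 of 6 in Cd8a-alone cells of clusters 1, 3, 4 and 6. The share of all genes that were lower by the same rule was not taken. These counts are therefore not read as a result about the CD3 genes.

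Over the 11 cluster means, the genes most like each member were named by Pearson's r on log2(CPM + 1), among 5304 genes with a mean of at least 20 CPM. These r values describe 11 points that share the same 6 libraries and in which cluster 6 is often the highest. Cd8a was most like Gm2a (0.98), a lysosomal lipid-binding cofactor, the inhibitory receptor Ctla4 (0.98) and Smpdl3b (0.96). Cd8b1 was most like Ly6a (0.96), which encodes Sca-1, then Themis (0.91), a signalling protein of the T cell receptor pathway, and Cd8a (0.91). Cd3e was most like Gm2a, Scamp2 and Nkg7 (each 0.97). Cd3d was most like Glmp (0.96), Yipf3 (0.95) and Sdf2 (0.95), and Cd3g like Tmem128 (0.98), Htatip2 (0.97) and Ndufa13 (0.97). Cd247 was most like Fasl (0.93), the death ligand of cytotoxic cells, and Gpr171 (0.92). Among the members, the closest pair was Cd8a and Cd3e (0.95) and the least close Cd3g and Cd247 (0.67).

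The signalling genes around the receptor were described from 4 lists. Of the 12194 genes tested outside cluster 2, 0.894% were highest in cluster 2 of all clusters in each library and 0.221% lowest. Of the 20 proximal kinases and adaptors, 5 separated cluster 2 from all other clusters in each library. Txk, a Tec-family kinase, was highest there, with 276 ± 21.1 CPM against 115 ± 11.4 as the mean of the others. The other 4 were lowest there: Lat, the membrane adaptor phosphorylated by Zap70 (118 ± 10.9 against 274 ± 15.1), Themis (34.3 ± 4.3 against 151 ± 14.5), and the receptor-associated surface proteins Cd5 (47.2 ± 7.9 against 109 ± 9.1) and Cd6 (48.8 ± 8.9 against 160 ± 16.1). Lck had 350 ± 27.0 against 358 ± 15.4 CPM. Of the 3 innate adaptors, Fcer1g and Tyrobp (105 ± 61.7 against 13.8 ± 6.9) were highest in cluster 2. Of 16 regulators of coreceptor genes and T lineage, Myb was highest there (60.7 ± 17.7 against 23.3 ± 4.2 CPM), and of 17 brakes on receptor signalling none separated it in each library.

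The comparison the study set up is between the sexes. Over all cells outside cluster 2, no member differed between male and female libraries at an adjusted p under 0.05 (edgeR's quasi-likelihood test with Benjamini-Hochberg adjustment over all genes). This is 0 of 7, where 11 of 12194 genes tested, 0.0902%, were called, and no member had an unadjusted p under 0.05 either, against 1020 of all genes. DESeq2 called 120 genes, 0.916%, and no member. Cd3e came closest, with 296, 322 and 274 CPM in male libraries 1, 3 and 4 against 332, 335 and 346 CPM in female libraries 2, 5 and 6. It was the 1 member of 7 with each male value below each female value, which was so for 6.09% of all genes. Its log2 fold change was -0.18 with an SE of 0.09 and an adjusted p of 0.673, with 0.377 to 1.00 over the alternatives.

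Cd8a had 582, 649 and 727 CPM in the male libraries against 730, 783 and 697 CPM in the female libraries, a log2 fold change of -0.17 (SE 0.11, adjusted p 0.725 by edgeR, 0.424 to 1.00 over the alternatives). Cd8b1 had 661, 774 and 757 CPM against 753, 813 and 709 CPM, with -0.05 (SE 0.11). For both chains the sexes overlapped. Cd3g had -0.21, Cd3d -0.11, Cd247 -0.04 and Cd4 -0.39 with an SE of 0.93. All 7 estimates lay below 0, where 48.8% of all genes did; the members share cells and libraries, so their signs are not 7 separate observations. Beside these values, the median depth of male libraries 1 and 4 was below that of each female library, and outside cluster 2 the sexes differed in markers. The 12 innate-like markers summed to 1417 to 1530 CPM in males and 1565 to 1770 CPM in females, the 4 naive or central memory markers to 215 to 371 and 93.5 to 179 CPM, and the 6 CD4 or regulatory T cell markers to 27.1 to 40.9 and 44.5 to 58.9 CPM. The 3 proliferation markers summed to 501 to 559 CPM in males and 581 to 685 in females, the 7 myeloid markers to 16.1 to 18.3 and 18.8 to 31.1 CPM, and the 2 of 7 gamma-delta markers in the table to 2.12 to 4.26 and 0.866 to 1.96 CPM. Their part in the result was not tested. With the same mix of clusters given to each library, Cd3e was at -0.17 and Cd8a at -0.19.

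Within single clusters, 0 of 66 member tests were called, and the share of all genes called was 0.139% in cluster 0, 3.8% in cluster 1, 0.358% in cluster 2, 0.142% in cluster 3, 0.105% in cluster 4, 0.0979% in cluster 5, 0.181% in cluster 6, 0.168% in cluster 7, 0.0968% in cluster 8, 3.41% in cluster 9 and 0.274% in cluster 10. Of the 66 estimates, 59 lay below 0, where 49.3% to 51.5% of all genes did in each cluster, and the 66 share cells and libraries. The smallest adjusted p values were in clusters 1 and 9, the clusters with the most calls in all. In cluster 1, where 3.8% of genes were called, Cd3e had 274, 264 and 261 CPM in the male libraries against 342, 340 and 344 CPM in the female libraries. The sexes stood apart by more than the spread within either, the log2 fold change was -0.33 with an SE of 0.09, and edgeR's adjusted p was 0.0513, with 0.0155 to 0.194 over the alternatives. DESeq2, which called 2.93% of genes in cluster 1, called it with an adjusted p of 0.0342. In cluster 1, 4 of 6 members (Cd8a, Cd8b1, Cd3e and Cd247) had each male value below each female value, as had 12.9% of all genes. Without female library 6, where 7.35% of genes were called, edgeR called Cd3e (0.0155), Cd3g (0.0174) and Cd3d (0.0499), and without a filter on low counts it called Cd3e (0.0487, where 4.83% of genes were called). Beside this, median depth in cluster 1 was 4319.5 to 6184 UMIs in males and 6488 to 6996 in females. The 12 innate-like markers summed to 1188 to 1345 CPM in males and 1531 to 1865 CPM in females, and the exhaustion markers to 299.9 to 411 and 514 to 918 CPM. The naive or central memory markers summed to 349 to 566 CPM in males and 160.3 to 345 in females, the CD4 or regulatory T cell markers to 22.4 to 24.5 and 40.3 to 49.7 CPM, and the 2 NKT and MAIT-like markers to 19.9 to 28.7 and 6.86 to 17.7 CPM. Their part in the result was not tested.

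Cluster 9, the one with the interferon-stimulated markers, had the largest estimates of the clusters for Cd8a, Cd8b1, Cd3e and Cd3g. Cd8a had 424, 494 and 607 CPM in the male libraries against 681, 804 and 683 CPM in the female libraries, a log2 fold change of -0.45 (SE 0.13, adjusted p 0.0554 by edgeR, 0.0251 to 0.360 over the alternatives). Cd8b1 had 481, 635 and 678 CPM against 796, 979 and 730 CPM, a log2 fold change of -0.43 (SE 0.14, adjusted p 0.0974 by edgeR, 0.0337 to 0.522 over the alternatives). Cd3g had 773, 934 and 1144 CPM against 1243, 1814 and 1167 CPM, a log2 fold change of -0.51 (SE 0.17, adjusted p 0.120 by edgeR, 0.00316 to 0.527 over the alternatives). In each of the 6 members the males were below the females without overlap, as in 13.5% of all genes, and 4 of the 6 had an unadjusted p under 0.05, as had 16.5% of all genes. No member passed the test in cluster 9, where 3.41% of genes did. With no filter on low counts, without male library 4 and without female library 6, where 3.82%, 3.81% and 4.58% of genes were called, edgeR called Cd8a (0.0251, 0.0331 and 0.0360) and Cd3g (0.00316, 0.0477 and 0.0310), and Cd8b1 under the first and the last (0.0379 and 0.0337). DESeq2 called 2.79% of genes in cluster 9 and no member.

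The cells of cluster 9 differed between the sexes in other ways that stood beside this. Cells with both coreceptor chains made up 58.5%, 58.8% and 69.1% of cluster 9 in the male libraries and 77.1%, 85.4% and 71.0% in the female libraries. Median depth was 4973.5 to 7245 UMIs in males and 7174 to 8444 in females. The 6 exhaustion markers summed to 349 to 552 CPM in males and 842 to 1133 in females, the naive or central memory markers to 509 to 761 and 173 to 421, the innate-like markers to 983 to 1475 and 1595 to 1861, and the 6 CD4 or regulatory T cell markers to 13.5 to 25.1 and 37.3 to 61.9 CPM, while the ranges of Fcer1g overlapped, at 82.9 to 108 and 69.5 to 86.2 CPM. The 2 gamma-delta markers in the table summed to 2.70 to 6.38 CPM in males and 0 to 2.33 in females. Within cells that held both coreceptor chains, Cd3e had 274 ± 41.6 CPM in males and 360.5 ± 15.96 in females, and Cd3g 1088 ± 202 and 1554 ± 337 (SD, n = 3 each). Within Cd8a-alone cells, Cd3g had 603 ± 73.3 CPM in males and 591 ± 147 in females, Cd3d 935 ± 98.2 and 942 ± 138, and Cd3e 173 ± 18.7 and 237 ± 94.7, and the sexes overlapped for each. The part of these differences in the result was not tested.

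**Figure D5:**
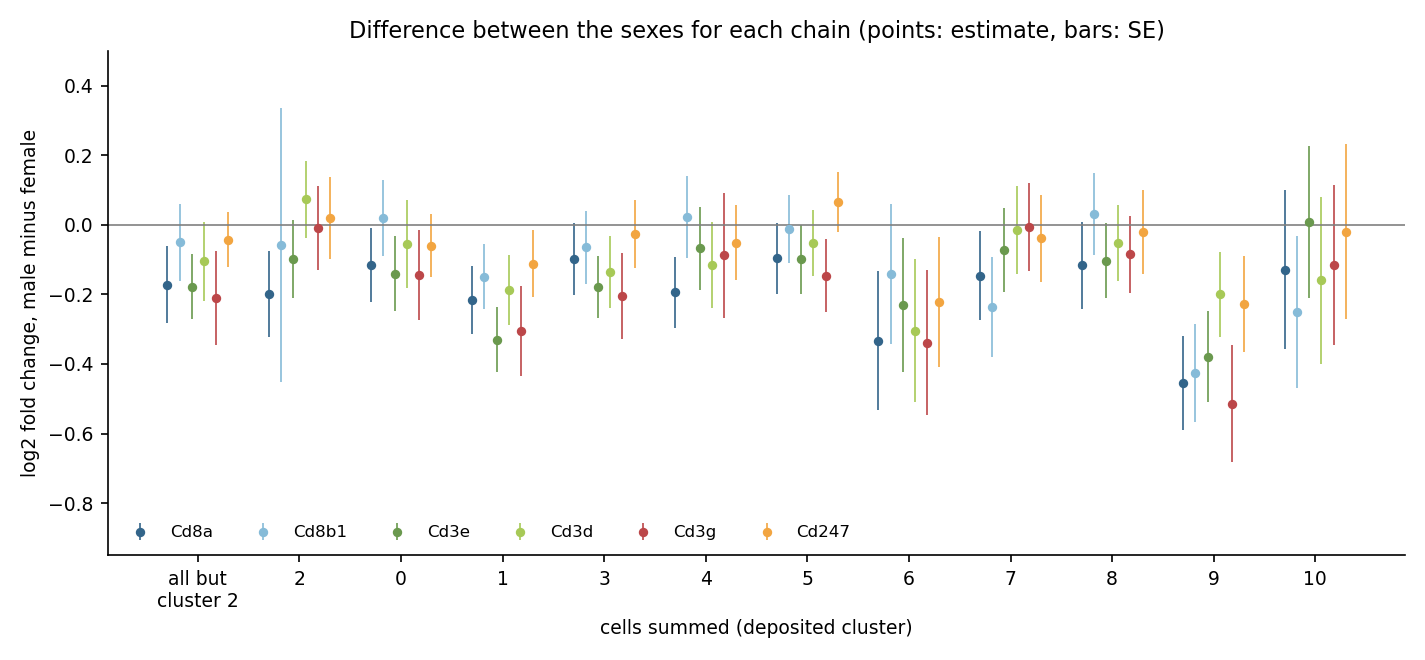
Log2 fold change, male minus female (y axis, below 0 is lower in males), with its SE, of the 6 chains with more than traces of RNA, over all cells outside cluster 2 and within each cluster (x axis). No point passed the test, and the estimates furthest from 0 relative to their SE are Cd3e in cluster 1, at -0.33, and Cd8a in cluster 9, at -0.45.

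The ratio of Cd8a to Cd8b1 was tested as a single value per library. Outside cluster 2 it was 0.882, 0.837 and 0.960 in male libraries 1, 3 and 4 and 0.969, 0.963 and 0.983 in female libraries 2, 5 and 6. The males were below the females without overlap, with male library 4 just below the lowest female value. The mean log2 difference was -0.12, with p = 0.10 in an exact two-sided permutation test over 20 assignments. That is the smallest p which 3 against 3 libraries allow, so no call was possible, and it became 0.40 when adjusted over this value and the 11 clusters. Males had the lower mean ratio in 9 of 11 clusters, without overlap in 2 of them, clusters 0 and 4. In cluster 2 the ratio was 1.93 ± 0.20 in males and 2.34 ± 0.74 in females, which overlapped.

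Whether the difference between the sexes was itself different in cluster 2 was tested as an interaction on both sums of each library, with the library as a block. It was called for 0 of 6 members, where 14 of 11584 genes, 0.121%, were called by edgeR. Cd3g had the largest term, 0.24 (SE 0.10), followed by Cd3d with 0.20 (SE 0.08); both had an adjusted p of 0.604 (0.350 to 1.00 for Cd3g and 0.540 to 1.00 for Cd3d over the alternatives), and they were the 2 members with an unadjusted p under 0.05, which 821 of all genes, 7.09%, had. DESeq2 called no member.

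Of the listed genes of the pathway, none was called between the sexes outside cluster 2 by edgeR. The 20 proximal kinases and adaptors had 8 estimates above and 12 below 0 with a median of -0.04, the 17 brakes 6 and 11 with -0.03, the 3 innate adaptors 0 and 3 with -0.25, and the 16 regulators 9 and 7 with 0.01, beside a median of 0.00 over all genes. Txk had 90.5 ± 11.02 CPM in males and 76.0 ± 3.0 in females (0.26, adjusted p 0.449), and Themis 140 ± 12.9 and 163 ± 8.2 (-0.21, adjusted p 0.583). Among the regulators, the Wnt-pathway factors Lef1 and Tcf7 had 0.44 (adjusted p 0.217) and 1.22 (adjusted p 0.555). A p above the threshold does not show that a gene was alike in both sexes.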

How the data were processed

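Single-cell libraries of the 3′ V3 kit from 3 male and 3 female samples were deposited by the authors as 1 table of raw UMI counts per gene and cell, with the sex, library number and cluster of each cell in a second table. Cell Ranger, Seurat and mm10 are named in the submitters' processing notes without versions; the sources used here give no further settings. The cluster numbers, UMI totals and other cell labels were used as deposited, and doublets were not treated again. The labels call the samples biological replicates but do not say whether each was 1 animal or a pool; p-values measure the spread between these libraries.

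Counts were summed per library and cluster and given as CPM of all UMIs of those cells. Sums were tested with edgeR 4.0.16 (quasi-likelihood, TMM factors, filter by expression) in R 4.3.3, with Benjamini-Hochberg adjustment over all genes and a threshold of 0.05, for sums of at least 20 cells. The interaction had the library as a block. DESeq2 1.42.0, upper-quartile factors, no filter, other cell sets, limma 3.58.1 on an equal cluster mix and leaving out each library were alternatives. The scripts were tested on simulated data. Ratios were tested by exact permutation (Python 3.11.15, NumPy 2.4.6, SciPy 1.17.1). Intervals and limits at a count of 0 (3 counts) cover counting error only.

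The members and gene lists were chosen with earlier results of these data known. Named genes were the members, the 3 genes most like each over the clusters, and from each list those separating cluster 2 in each library plus up to 4 with the smallest unadjusted p between the sexes. A gene that this rule names is not reported here.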

Additional observations from a re-analysis of the deposited data

How the results depend on the processing

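No paired analysis was possible because the library numbers in the cell names do not carry the replicate numbers of the labels. The following 2 choices were made after seeing the data: cells of at least 5000 UMIs for the innate markers, and the coreceptor ratio over all cells (-0.11).

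Outside cluster 2, 11 genes were called between the sexes with edgeR, 120 with DESeq2 and 9 to 16 with a library left out. Within clusters, 751 calls in all became 1434 with no filter and 232 to 1262 with a library left out (321 without male library 1, 232 without female library 5, 1262 without female library 6). The interaction had 14 calls, 74 with no filter and 12 to 42 with a library left out (42 without male library 4, 29 without female library 6). The causes were not tested.

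With a library left out, the sign turned for the sex difference outside cluster 2 of Cd8b1 (-0.13 to 0.027; 0.027 without male library 1) and Cd4 (-0.999 to 0.43). It also turned for the interaction of Cd8a (-0.10 to 0.11, and -0.011 with DESeq2), Cd8b1 (-0.20 to 0.43) and Cd247 (-0.069 to 0.17), and for the log2 ratio of the coreceptor chains in clusters 3 (-0.10 to 0.022), 7 (-0.016 to 0.14) and 9 (-0.076 to 0.029). None of these had been called. The ratio outside cluster 2 ran from -0.18 to -0.08 with a library left out and was -0.14 after thinning.

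Cd3e in cluster 2 was at -0.71 against the other clusters with TMM factors. Thinned to 2000 UMIs, cells with a Cd8a UMI made up 32.0% in cluster 2 and 69.6% outside it, cells with a Cd8b1 UMI 15.3% and 72.7%, and in cluster 2 Cd8a alone 24.7% and neither 60.0%, by the construction of a deeper draw. Of the other alternatives, 429 were classed as the same and 13 passed the threshold, all in clusters 1 and 9. For a test, the same meant the same direction and side of the threshold, and for a count of calls a like size. For levels, shares and differences between cell classes it meant a change below the SD over libraries. The test of the ratio could not reach the threshold, so its side was fixed in advance. The number of libraries limits the precision.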
